A study of Mus musculus with 6 samples.

Results

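The cells described here are acute-phase fibroblasts of the mouse genioglossus, the main protrusor muscle of the tongue, defined by transcripts of Saa3 (serum amyloid A3) and Serpina3n (a secreted inhibitor of serine proteases). A barcode belonged to the set when it held at least 300 genes, at least 1 Pdgfra UMI (unique molecular identifier, a count of 1 captured RNA molecule), at least 5 UMIs over Dcn, Col3a1 and Col1a2 together, and at least 6 UMIs over Saa3 and Serpina3n together. It also had at most 1 UMI over Tnmd and Thbs4, which mark tendon cells, and 0 over Pecam1, Cdh5 and Ptprc, which mark endothelial and immune cells. The rule chose 123 barcodes of 56309, and 2578 others met every condition except that Saa3 and Serpina3n summed to 5 or fewer. These 2578 are called cells under the limit, and both sets together, 2701 cells, are called Pdgfra fibroblasts. The study made 10x Genomics single-cell libraries from male mice, 3 from controls and 3 from an obstructive sleep apnea (OSA) model, all at week 4 and all labelled batch 1. Control animals carry the treatment label control and the OSA animals were taken from the group named OSA-4W; strain, age and the way the model was made are not given in the sources used here. Count matrices were read for all OSA replicates and for control replicate 2 alone; the other control matrices (replicates 1 and 3) were not used here. The labels call the samples skeletal muscle cells, but the members were low in muscle fibre transcripts, with 10 myofibre markers summing to 35.1, 62.9, 74.5 and 17.8 CPM (counts scaled to a common total) and Myh1 and Myh2 at 0 in all 4 libraries.

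The acute phase response is best known from the liver, where interleukin 6 acting through STAT3, and interleukin 1 acting through NF-kB and C/EBP factors, raise the output of secreted defence proteins. Saa3 is the serum amyloid A gene used mainly outside the liver, Hp encodes haptoglobin, which binds free haemoglobin, and Lcn2 encodes lipocalin 2, which keeps iron from bacteria. Fibroblasts carrying Pdgfra are the main matrix-producing cells of muscle connective tissue and can take up such a secretory programme in inflamed tissue. Adventitial fibroblasts, marked by Pi16, and interstitial fibroblasts, marked by Smoc2 and Cxcl14, are common varieties of them.

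The promoters of the 2 genes that define the cells are shown, with those of C3 and Cxcl2, secreted products that also differed between the sets of cells. Each is the stretch of 250 bases before the start in RefSeq on build GRCm38.p6, which is not the build of the count matrices, written 5′ to 3′ on the gene's own strand, with every match to 3 motifs in capitals.
Saa3, chr7:46715677-46715926, minus strand: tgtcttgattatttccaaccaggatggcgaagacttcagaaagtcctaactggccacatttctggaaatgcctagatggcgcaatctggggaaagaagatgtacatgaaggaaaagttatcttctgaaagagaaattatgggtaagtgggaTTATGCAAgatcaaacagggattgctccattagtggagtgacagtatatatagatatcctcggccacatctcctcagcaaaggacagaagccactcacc
Serpina3n, chr12:104406458-104406707, plus strand: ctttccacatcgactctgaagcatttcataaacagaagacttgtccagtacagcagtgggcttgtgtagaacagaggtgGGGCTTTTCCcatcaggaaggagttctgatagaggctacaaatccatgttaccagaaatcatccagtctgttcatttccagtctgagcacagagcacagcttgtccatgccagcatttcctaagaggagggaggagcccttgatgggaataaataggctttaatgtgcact
C3, chr17:57228137-57228386, minus strand: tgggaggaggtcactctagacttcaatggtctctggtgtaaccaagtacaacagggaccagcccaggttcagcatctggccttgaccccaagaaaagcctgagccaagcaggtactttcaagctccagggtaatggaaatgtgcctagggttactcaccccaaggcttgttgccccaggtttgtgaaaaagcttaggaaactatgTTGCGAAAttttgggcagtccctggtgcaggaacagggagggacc
Cxcl2, chr5:90903649-90903898, plus strand: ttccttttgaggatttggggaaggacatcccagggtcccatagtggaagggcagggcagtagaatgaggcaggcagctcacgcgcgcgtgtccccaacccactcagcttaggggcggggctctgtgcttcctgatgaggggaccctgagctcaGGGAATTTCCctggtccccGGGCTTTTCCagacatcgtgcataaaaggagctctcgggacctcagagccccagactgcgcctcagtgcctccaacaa
The motifs searched on both strands were TTGCNNAA for C/EBP, TTCNNNGAA for STAT factors and, for NF-kB, 3 G, any 2 bases, 3 T and 2 C in a row. Saa3 and C3 each held 1 C/EBP match, Serpina3n held 1 NF-kB match and Cxcl2 held 2. None of these 4 windows held a STAT match. Of the 11 genes found in the table, Lcn2, Mmp3 and Il6 also held a match, and Timp1, Tnc, Tnfsf8 and Chl1 held none, so the 4 printed were chosen among those with a match. Over 32851 windows of this length, 9.56% held a C/EBP match, 1.41% an NF-kB match and 7.02% a STAT match. A match is a description of letters, and no factor's binding was measured.

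Members were few and unevenly spread over the libraries: 2 in control replicate 2, and 13, 17 and 91 in OSA replicates 1, 2 and 3. In what follows, 4 values in a row are in this library order. CPM are taken over all UMIs summed over the cells of a set within a library. The control members hold only 28481 UMIs in all, so that a gene at 0 there could stand at up to 105 CPM (3 counts, counting error only), against 18.9, 14.9 and 2.43 CPM in the OSA members. Cells of 1 library are not replicates, and nothing in the labels says that the libraries came from separate animals. A p-value therefore speaks of the spread of these libraries only, and that spread may be technical. In the gene tests below, the spread of a gene was estimated in part from all genes tested. A very small p-value there does not rest on the gene's own libraries alone.

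**Figure D1:**
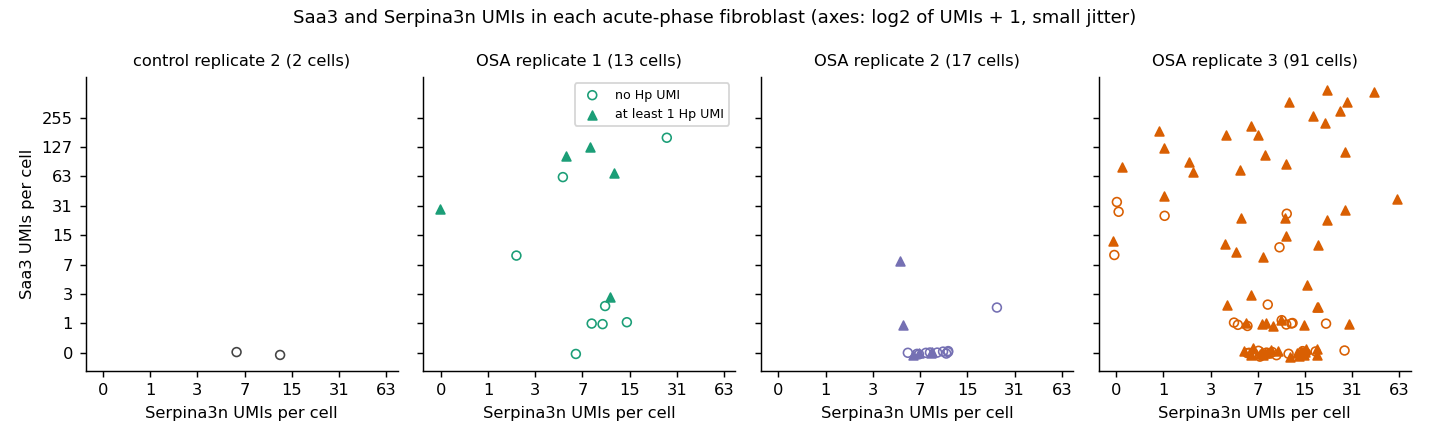
UMIs of Serpina3n (x axis) and Saa3 (y axis) in each of the 123 members, by library, on log2(UMIs + 1) axes with small jitter; filled triangles are cells with at least 1 Hp UMI. Control replicate 2 and nearly all cells of OSA replicate 2 lie at or near 0 Saa3, while OSA replicates 1 and 3 reach 160 and 497 Saa3 UMIs in their highest cells.

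The 2 genes that chose the cells were not carried alike. Serpina3n was found in 117 of 123 members and Saa3 in 73. Both genes were found in 67 members, Serpina3n without Saa3 in 50 and Saa3 without Serpina3n in 6. Serpina3n stood at 632, 736, 755 and 849 CPM in the members, close together across libraries, against 16.2, 31.7, 52.4 and 71.8 CPM in the cells under the limit. Saa3 stood at 0, 3567, 54.7 and 3549 CPM in the members and 0.862, 13.7, 1.87 and 23.9 CPM in the cells under the limit, so that OSA replicates 1 and 3 were high and control replicate 2 and OSA replicate 2 were low. These values were used by the rule and carry no test. Serpina3n alone would have passed the limit in 2, 9, 15 and 72 of the members. The name with Saa3 therefore describes OSA replicates 1 and 3, where 12 of 13 and 58 of 91 members held a Saa3 UMI, better than OSA replicate 2, where 3 of 17 did.

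Saa3 was concentrated in some of the cells. A count of 6 or more Saa3 UMIs was reached by 0, 7, 1 and 37 members, and 50 or more by 0, 5, 0 and 19. In OSA replicate 3 the medians per member were 1 Saa3 UMI and 9 Serpina3n UMIs. The highest counts there, 497 Saa3 UMIs and 62 Serpina3n UMIs, lay in different cells. At the limit itself, 24 members had a sum of 6 or 7 and 48 cells had a sum of 4 or 5. Hp was at 134 CPM in the former and 279 CPM in the latter, and Timp1 at 263 and 334 CPM, so neither gene stepped up at the limit. Reads of near-identical copies may have been shared between genes of the serum amyloid A and Serpina3 clusters. Over all members Saa1 and Saa2 gave 44 and 3 UMIs beside 4967 of Saa3, and Serpina3g, Serpina3m, Serpina3i, Serpina3f and Serpina3h gave 38, 12, 5, 18 and 16 beside 1337 of Serpina3n.

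Fibroblast markers were present in every library. The 12 markers on that list, which include genes of the rule and Hp, summed to 15870.2, 32873, 19976 and 32296 CPM in the members and to 24331, 26822, 21749 and 26602 CPM in the cells under the limit. Pdgfra itself was at 70.2, 220, 229 and 153 CPM in the members and 267, 308, 274 and 255 CPM in the others. Gsn, a fibroblast-rich actin-severing protein, was at 6496, 4001, 4527 and 4479 CPM in the members, below 10851, 10910.4, 9519 and 11110.2 CPM in the others. Hepatocyte markers, which would point to liver RNA, summed to at most 50.3 CPM, with Alb, Ttr, Serpina1a and Fga at 0 in all members. Epithelial and mesothelial lists summed to at most 9.7 and 4.85 CPM. Immune markers summed to 70.2, 138, 492 and 969 CPM in the members and 56.9, 190, 694 and 648 CPM in the cells under the limit, with Ptprc at 0 by the rule. Members were deeper than the cells they were compared with: their median UMIs per cell were 14240.5, 12212, 11255 and 13578, against 7724.5, 7009.5, 7751 and 6924. Scrublet, a doublet caller, marked 0, 0, 0 and 3 members.

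Acute-phase fibroblasts made up 0.263% of the Pdgfra fibroblasts in control replicate 2 (2 of 760 cells, exact 95% interval 0.0319 to 0.947%). In OSA replicates 1, 2 and 3 they made up 2.63% (1.41 to 4.45%), 2.91% (1.7 to 4.61%) and 10.6% (8.6 to 12.8%). At full depth every OSA library lay above the control library, and OSA replicate 3 stood apart from the other OSA libraries. The OSA mean was 5.37 ± 4.51% (SD, n = 3), 5.10 percentage points above the control. An exact two-sided permutation test over libraries gave p = 0.5, where the smallest p that 1 control against 3 OSA libraries allows is 0.25. Without OSA replicate 3 the difference was 2.50 points. After every cell was thinned to 2000 UMIs and shallower cells were left out, it was 1.70 points (exact permutation p = 0.75). At that equal depth the control library held 0 of 725 and OSA replicate 2 held 0 of 555, so OSA replicate 2 no longer lay above the control, while OSA replicates 1 and 3 stood at 1.36% and 3.74%.

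**Figure D2:**
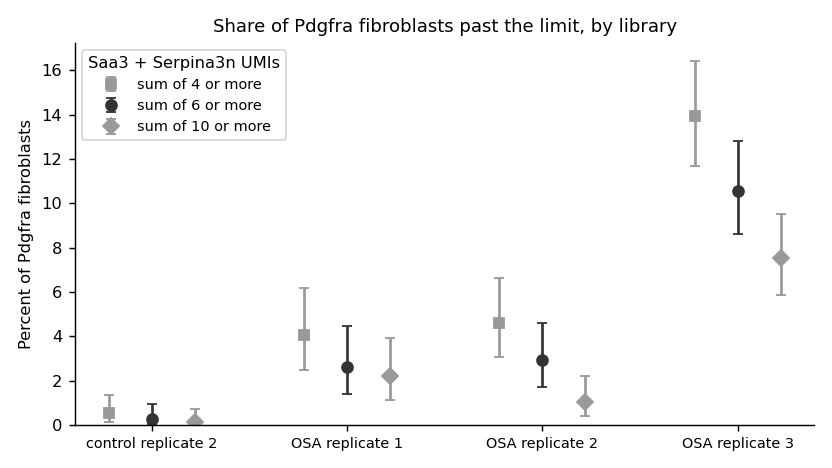
Percent of Pdgfra fibroblasts past the limit (y axis) in each library (x axis) for sums of at least 4, 6 and 10 UMIs; bars are exact 95% binomial intervals, which cover counting error only. OSA replicate 3 is highest at every limit, with 10.6% at the limit of 6, and control replicate 2 is lowest, with 0.263%.

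Cells beyond the Pdgfra fibroblasts also reached 6 Saa3 and Serpina3n UMIs. Such barcodes numbered 6, 164, 125 and 660 of all barcodes, or 0.0438%, 1.04%, 0.993% and 4.61%. Among barcodes with fibroblast collagen genes but no Pdgfra UMI they were 0.147%, 1.25%, 0.903% and 6.1%, and among tenocyte-gated barcodes 0, 3.07%, 0.715% and 6.71%. Among immune-gated barcodes (at least 2 Ptprc UMIs and no Pdgfra UMI) they were 0 of 104, 4.3%, 1.13% and 10%. The share in Pdgfra fibroblasts was 0.263%, 2.63%, 2.91% and 10.6%. The immune-gated share was thus the higher in OSA replicate 1 and close to it in OSA replicate 3. Among endothelial-gated barcodes, those with a sum of 6 or more were 0 of 6831 (up to 0.054%), 0.207%, 0.478% and 1.97%. OSA replicate 3 was therefore highest in all of these gates. Immune-gated barcodes held Saa3 at 1.96, 195, 25.1 and 314 CPM and Serpina3n at 1.96, 5.08, 4.31 and 8.76 CPM. Endothelial-gated barcodes held Saa3 at 0.694, 19, 4.33 and 72 CPM, and all Pdgfra fibroblasts, members included, at 0.858, 178, 4.24 and 680 CPM. Saa3 in OSA replicate 2 was thus no higher in Pdgfra fibroblasts as a whole than in endothelial-gated barcodes. Their median depth was 3775, 3696, 4358 and 3787.5 UMIs.

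To describe what else the cells expressed, UMIs were summed per library and set, and members were compared with cells under the limit of the same library. The 11 genes of the rule were left out of the fit. Of 11749 genes tested with edgeR's quasi-likelihood test, 305 (2.6%) passed an adjusted p of 0.05, of which 166 (1.41%) were higher and 139 (1.18%) lower in the members. Of the same genes, 350 (2.98%) were higher in all 4 libraries and 2304 (19.6%) lower, a count that takes in genes at 0 among the few control UMIs. The count fell to 69 without OSA replicate 3 and to 125 without OSA replicate 1. When 3 cells under the limit of like depth were matched to each member, 225 of the 305 genes could be tested, all 225 kept their direction and 91 passed. When the cells were chosen on 1 random part of their UMIs and measured on the other, 277 could be tested, 276 kept their direction and 176 passed.

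**Figure D3:**
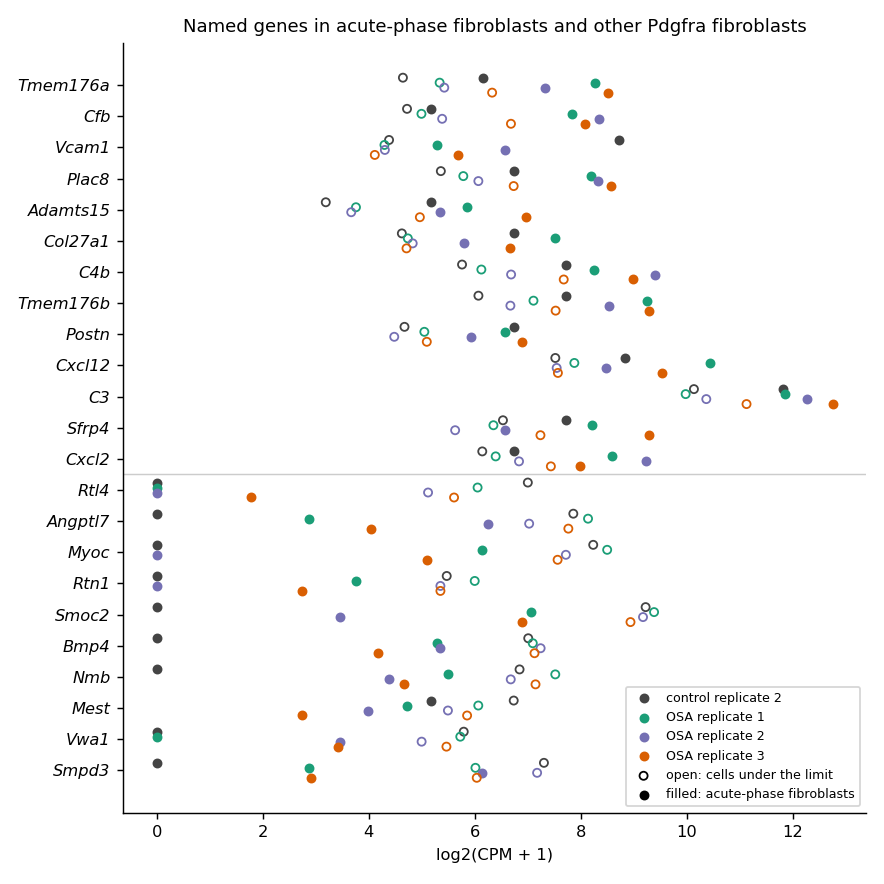
Expression on a log2(CPM + 1) axis of the named genes with the largest rises (above the grey line) and the 10 with the largest falls, in members (filled) and cells under the limit (open), by library. The genes were chosen among those moving alike in all 4 libraries. Filled points therefore lie right of the open point of the same library above the line, and left of it below the line, by that choice. Control member points under 105 CPM, such as those of Cfb and Adamts15, rest on fewer than 3 UMIs. C3 is the highest of the genes shown, from 3581 to 6891 CPM in the members.

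Acute-phase and lipocalin genes were mostly higher in the members. Of 23 on the list, 11 could be tested, 10 were higher, 4 rose and 0 fell, with a median log2 difference of 0.97 against -0.09 over all genes tested. The 4 were Hp, Lcn2, Serpina3g and Steap4, a metalloreductase of inflamed tissue. Lcn2 was at 0, 81.8, 159 and 51.8 CPM in the members and 2.07, 2.14, 77.2 and 16.8 CPM in the cells under the limit, a log2 difference of 2.01 ± 0.34 (± SE here and below; edgeR adjusted p = 1.55e-06). Members exceeded the cells under the limit in all 3 OSA libraries, and the control members held no Lcn2 UMI. Serpina3g rose on 38 UMIs (2.87 ± 0.62; edgeR adjusted p = 4.61e-04), and Steap4, with 35.1, 169.8, 104 and 104 CPM in the members, lost its call whenever 1 OSA library was left out. Neutrophils are a known source of Lcn2 and Hp. Immune markers summed to 56.9, 190, 694 and 648 CPM under the limit and to 70.2, 138, 492 and 969 CPM in the members. The libraries stood in the same order for Lcn2 under the limit, but not in the members. The highest cell under the limit in OSA replicate 2 held 83 of the 330 Lcn2 UMIs of those cells. Barcodes of the immune gate held Hp at 96.1, 468, 1239 and 622 CPM. The part of immune RNA in the results for Hp and Lcn2 was not tested.

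Hp was at 0, 673, 69.6 and 1484 CPM in the members and 12.1, 14.3, 23.6 and 96.8 CPM in the cells under the limit. OSA replicate 3 was highest by far and the control members held none. The log2 difference was 3.73 ± 0.73 (SE; edgeR adjusted p = 0.0363, higher in 3 of 4 libraries). A UMI of Hp was found in 0, 38.5%, 35.3% and 69.2% of the members, in 1.32%, 4.15%, 10.9% and 20.8% of the cells under the limit, and in 0.278%, 2.63%, 6.35% and 10.5% of endothelial-gated barcodes. In OSA replicate 1 a lone cell held 95 of the 107 Hp UMIs, and without it the level was 82.4 CPM. In OSA replicate 3 the highest cell held 214 of 1835, and without it the level was still 1329 CPM. The call was lost without control replicate 2 (edgeR adjusted p = 0.491), with a limit of 4 (0.389), at matched depth (0.229) and with RLE scaling (0.154), as well as in DESeq2 (0.294). Timp1, which encodes an inhibitor of matrix metalloproteinases, was at 0, 3101, 323 and 1041 CPM against 34.1, 50, 98 and 151 CPM, a log2 difference of 3.13 ± 1.32 (SE) that did not pass (edgeR adjusted p = 0.624). A lone cell of OSA replicate 1 held 314 of that library's 493 Timp1 UMIs.

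Complement genes were mostly higher. Of 17 tested, 14 were higher and 4 rose: C3, the central component, C4b and C2 of the classical pathway and Cfb, the protease of the alternative pathway. The median log2 difference was 0.55, against -0.09 over all genes. C3 was at 3581, 3718, 4915 and 6891 CPM in the members and 1122, 1007, 1319 and 2233 CPM in the cells under the limit. Every member sum lay above every sum under the limit, and the log2 difference was 1.75 ± 0.19 (SE; edgeR adjusted p = 4.75e-17, higher in 4 of 4 libraries). Cfb was at 35.1, 226, 323 and 270.1 CPM against 25.3, 30.8, 40.7 and 102 CPM (2.31 ± 0.28; adjusted p = 1.29e-13). C4b was at 211, 302, 676 and 503 CPM against 53.1, 68.6, 102 and 203 CPM (2.06 ± 0.27; adjusted p = 2.01e-11). In C3, Cfb and C4b the members were above the cells under the limit within each library, which was a condition for naming them among the largest rises. C2 was at 70.2, 75.5, 39.8 and 69.5 CPM against 10.2, 11, 5.85 and 23.5 CPM. The control member values of Cfb and C2 lie under 105 CPM, so each rests on fewer than 3 UMIs. These 4 genes passed in every alternative in which they were tested. Serping1, the inhibitor of the first complement protease, was at 1369, 2617, 2037 and 3665 CPM against 1428, 1473, 1376 and 2032 CPM and did not pass (adjusted p = 0.115).

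Il6 and some genes of the NF-kB response rose. Il6, the main inducer of the liver acute phase, was at 913, 308, 293 and 73.6 CPM in the members and 101, 134, 97.3 and 69.9 CPM in the others (1.39 ± 0.25; edgeR adjusted p = 9.97e-06, and 0.102 at the highest of 3 alternatives in which it missed). The control members were highest and OSA replicate 3, which held most Saa3 cells, was closest to its cells under the limit. On the interleukin 6 and STAT3 list, 20 were tested, 7 were higher and 13 lower; Il6 rose and the transcription factors Cebpd and Irf1 fell. Stat3 itself was at 632, 660.5, 606 and 579.8 CPM against 865, 877, 808 and 764 CPM, and Socs3, a feedback inhibitor and target of STAT3, at 1334, 1044, 562 and 481 CPM against 764, 956, 815 and 873 CPM; neither passed (edgeR adjusted p = 0.539 and 0.892). On the NF-kB and interleukin 1 or 17 list 24 were tested, 15 were higher, 6 rose and 0 fell. These were the NF-kB inhibitor Nfkbie, the feedback enzyme Tnfaip3, the receptor Il1r1, the alarmin Il33, the adhesion molecule Vcam1 and Tnfaip6, a hyaluronan-binding protein. Vcam1 was at 421, 37.7, 94.4 and 50.1 CPM against 19.8, 18.6, 18.7 and 16.3 CPM (2.24 ± 0.34; adjusted p = 1.04e-08) and passed in every alternative run. The control value rests on 12 UMIs of 2 cells. The median log2 difference on this list was 0.14, against -0.09 over all genes tested, of which 1.41% rose. The count of 6 rises on this list fell to 1 without OSA replicate 3, to 3 without OSA replicate 1 and to 3 without OSA replicate 2. At matched depth Nfkbie (edgeR adjusted p = 0.254), Tnfaip3 (0.143) and Tnfaip6 (0.834) lost their calls. Only 1 of the 6, Vcam1, was called in every alternative. The calls of Cebpd and Irf1 were lost when any 1 OSA library was left out (edgeR adjusted p from 0.0937 to 0.978).

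Of 4 neutrophil-attracting chemokines tested 2 rose, and of 14 other chemokines 4 rose and 1 fell. Cxcl2 and Cxcl5, which attract neutrophils, were higher in the members, as were Cxcl12, which retains leukocytes and progenitors, Ccl19, which guides dendritic and T cells, Ccl2, which attracts monocytes, and Cxcl16. Cxcl12 was at 456, 1384, 353 and 742 CPM against 182, 234, 185 and 189 CPM (1.77 ± 0.25, SE; edgeR adjusted p = 9.61e-10), with every member sum above every sum under the limit. Cxcl2 was at 105, 384, 596 and 252 CPM against 69.5, 83, 113 and 172 CPM (1.63 ± 0.27; adjusted p = 5.45e-07). OSA replicate 2 was highest, and the call was lost with a limit of 10 or at matched depth (edgeR adjusted p up to 0.267). The related Cxcl1 was at 1264, 849, 1058 and 708 CPM against 1144, 877, 852 and 781 CPM and did not pass. Ccl19 was at 0, 145, 224 and 130.2 CPM against 35.7, 38.1, 57.5 and 65.7 CPM (1.51 ± 0.28; edgeR adjusted p = 1.85e-05, and 0.089 in DESeq2). Cxcl5 rose on 28 UMIs, all from OSA replicates 1 and 3. Ccl11, the eosinophil attractant eotaxin, fell, from 1003, 944, 782 and 642 CPM to 246, 711, 348 and 285 CPM (-1.06 ± 0.23). Of the 7 calls here, Ccl11 was lost without OSA replicate 3 (adjusted p = 0.136), and Ccl2 and Cxcl16 were lost without OSA replicate 1 or OSA replicate 3 (0.42 to 0.764). At matched depth Ccl2 (edgeR adjusted p = 0.98), Cxcl16 (0.0548) and Ccl11 (0.0837) were lost as well. In DESeq2 their adjusted p were 0.0733, 0.545 and 0.0876. Chl1 and Tnfsf8 were singled out after their values were seen. Chl1, a neural cell adhesion molecule, was at 70.2, 132, 44.7 and 68.7 CPM against 1.03, 3.36, 3.51 and 3.88 CPM (4.54 ± 0.43; adjusted p = 1.04e-22). Tnfsf8, the ligand of CD30, was at 0, 138, 4.97 and 323 CPM against 0.517, 2.44, 4.44 and 21.1 CPM (4.05 ± 0.38; adjusted p = 1.04e-22), high in OSA replicates 1 and 3 and near the cells under the limit in OSA replicate 2.

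Membrane and signalling genes stood among the largest rises. Tmem176a and Tmem176b, neighbouring genes for membrane proteins, were at 70.2, 308, 159 and 363 and 211, 610.2, 368 and 625 CPM in the members, against 24, 39.4, 41.9 and 79.2 and 66, 137, 101 and 183 CPM. Their log2 differences were 2.36 ± 0.28 and 1.93 ± 0.26 (SE; edgeR adjusted p = 3.27e-14 and 1.85e-10). Plac8, a small cysteine-rich protein, was at 105, 289, 318 and 381 CPM against 40, 54, 66 and 105 CPM (2.14 ± 0.27). These 3 genes passed in all 12 alternatives run on them. Sfrp4, which binds Wnt ligands, rose by 1.67 ± 0.28 on the log2 scale (edgeR adjusted p = 5.50e-07). It was at 211, 296, 94.4 and 623 CPM against 91.4, 80.5, 48.4 and 149.8 CPM. Sfrp4 lost its call without OSA replicate 3 (edgeR adjusted p = 0.0711) and at matched depth (0.259). Apoe, a lipid carrier made by fibroblasts and macrophages, was at 2036, 1969, 1029 and 765 CPM against 511, 414, 371 and 764 CPM. It was level in OSA replicate 3, and its call ended without control replicate 2 (edgeR adjusted p = 0.0645) and at matched depth (0.215).

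Some matrix genes rose and others fell. Of 15 collagens tested outside the rule, 9 were higher, 3 rose (Col1a1, Col12a1 and Col16a1) and Col8a1 fell. Col1a1 was at 1791, 5554, 3061 and 6949.8 CPM against 1127, 1382, 1535 and 2341 CPM (1.32 ± 0.19, SE; edgeR adjusted p = 3.16e-09), and its rise was carried in every alternative, as was the fall of Col8a1 from 72.7, 104, 106 and 86.6 to 0, 31.5, 4.97 and 27.5 CPM. Col3a1 and Col1a2, genes of the rule given without a test, were at 1053, 5064, 2559 and 4243 and 1685, 4718, 2967 and 4634 CPM in the members and 1076, 1486, 1461 and 1776 and 1376, 1614, 1739 and 2159 CPM in the others. Col12a1 and Col16a1 lost their calls without OSA replicate 1 (adjusted p = 0.724 and 0.152) and without OSA replicate 3. Col27a1, a cartilage-type fibrillar collagen among the largest rises, was at 105, 182, 54.7 and 100.3 CPM against 23.6, 25.6, 27.4 and 25.2 CPM (2.08 ± 0.31; adjusted p = 6.23e-09). Of 26 matrix proteins and crosslinkers, 14 were higher and 12 lower, with a median log2 difference of 0.04 against -0.09 over all genes tested. Of these 26, 1 fell (Ccn2) and 4 rose: Tnc (tenascin C, a protein of injured matrix), Postn (periostin), the crosslinking enzyme Lox and the proteoglycan Bgn. Tnc was at 0, 113, 9.94 and 119 CPM against 2.93, 3.05, 12.9 and 11.5 CPM (3.16 ± 0.40; adjusted p = 4.39e-12). It was higher in the members of OSA replicates 1 and 3 and not in the other libraries, and the call was lost at matched depth (0.707). Postn was at 105, 94.4, 59.6 and 118 CPM against 24.5, 32, 21.3 and 33.1 CPM (1.77 ± 0.32; adjusted p = 5.06e-06), and its call was lost without OSA replicate 3 (0.122). The calls of Lox and Bgn were lost without OSA replicate 1 or OSA replicate 3.

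Matrix proteases changed in both directions. Of 22 proteases and inhibitors, 15 were higher, 5 rose and 2 fell. The stromelysin Mmp3 was at 0, 421, 9.94 and 229.7 CPM against 22.8, 59.5, 28.5 and 31.4 CPM (2.17 ± 0.34, SE; edgeR adjusted p = 2.08e-06), higher only in those of OSA replicates 1 and 3 of the 4 libraries. Its call ended without control replicate 2 (edgeR adjusted p = 0.411), without OSA replicate 3 (0.261) and in DESeq2 (0.999). Adamts15 was at 35.1, 56.6, 39.8 and 125 CPM against 8.1, 12.5, 11.7 and 30.2 CPM (2.10 ± 0.36; adjusted p = 1.74e-06, and 0.122 without OSA replicate 3). Mmp14, Mmp19 and Adamts4 also rose, and Adamts5 and Timp3 fell. Without OSA replicate 3 none of the list's 7 calls was made. Of 19 genes of myofibroblasts and activated fibroblasts, Postn, Tnc, Il1r1 and the latent TGF-beta binding protein Ltbp2 rose. Tagln and Myl9, which serve contraction, and the growth factor Ccn2 fell; Acta2, the smooth muscle actin, was at 70.2, 107, 54.7 and 95.4 CPM against 162, 227, 123 and 141 CPM and did not pass (adjusted p = 0.113). The rise of Il1r1 and the falls of Tagln and Myl9 were lost when any 1 OSA library was left out. Ltbp2 was lost without OSA replicate 1 (edgeR adjusted p = 0.9997), with a limit of 4 (0.0673) and in DESeq2 (0.716), and Ccn2 without OSA replicate 1 (0.332) or OSA replicate 2 (0.329).

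Genes of interstitial fibroblasts were mostly lower. Of 16 tested, 14 were lower, 4 fell (Smoc2, G0s2, Vwa1 and Crispld2) and 0 rose, with a median log2 difference of -0.62. Cxcl14, which marks these cells along with Smoc2, was on the list and did not pass. Smoc2, a matrix protein that defines these cells, was at 0, 132, 9.94 and 117 CPM against 596, 666, 576 and 489 CPM (-2.82 ± 0.30, SE; edgeR adjusted p = 3.72e-17). Every member sum lay below every sum under the limit. Crispld2 was at 35.1, 113, 139 and 131 CPM against 317, 361, 312 and 367 CPM (-1.47 ± 0.28). Smoc2 and Crispld2 passed in every alternative run, whereas Vwa1 and G0s2 were lost without OSA replicate 3 (adjusted p = 0.162 and 0.349). Inmt, a methyltransferase of interstitial cells, was at 0, 912, 204 and 158 CPM against 1289, 1398, 432 and 1096 CPM and did not pass (adjusted p = 0.379). Adventitial genes did not pass either: 13 of 16 were lower, with 0 calls in edgeR and in DESeq2 and 4 genes at an unadjusted p under 0.05. Pi16 was at 281, 415, 3165 and 924 CPM against 1583, 1543, 1762 and 2093 CPM, below the cells under the limit in control replicate 2 and OSA replicates 1 and 3 and above them in OSA replicate 2.

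Several secreted factors were among the other large falls. Myoc (myocilin) was at 0, 69.2, 0 and 33.2 CPM against 299.8, 360.0, 209 and 188 CPM (-2.86 ± 0.33, SE; edgeR adjusted p = 1.11e-14), and Angptl7, an angiopoietin-like protein, at 0, 6.29, 74.5 and 15.4 CPM against 231, 280.1, 129 and 216 CPM (-2.92 ± 0.35). Bmp4, a bone morphogenetic protein, was at 0, 37.7, 39.8 and 17 CPM against 128, 135, 150.2 and 139 CPM (-2.42 ± 0.35), and Nmb, neuromedin B, at 0, 44, 19.9 and 24.3 CPM against 114, 182, 101 and 140.4 CPM (-2.33 ± 0.35). Rtl4, a gene derived from a retrotransposon, was at 0, 0, 0 and 2.43 CPM against 127, 65.3, 33.7 and 47.7 CPM and gave 3 UMIs over all members. In each of these 5 genes every member sum was below every sum under the limit. The control members held no UMI of any of them, and a 0 there could stand at up to 105 CPM. That exceeds the sums under the limit of Rtl4 in the OSA libraries and of Nmb in OSA replicate 2. For these 2 genes the control members cannot be placed below every such sum. Myoc, Bmp4, Nmb and Rtl4 passed in every alternative, and Angptl7 missed with a limit of 4 and with matched depth (adjusted p up to 0.493). Rtn1, Mest, Vwa1 and Smpd3 were the remaining large falls, with log2 differences of -2.85 ± 0.52, -2.33 ± 0.44, -2.28 ± 0.48 and -2.27 ± 0.38. Each missed without OSA replicate 3 (adjusted p = 0.0608, 0.545, 0.162 and 0.122). Cdkn1c, a cell cycle inhibitor chosen after its values were seen, was at 35.1, 145, 204 and 161 CPM against 1072, 842, 498 and 727 CPM (-2.16 ± 0.26; adjusted p = 1.29e-13).

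Immediate early genes respond within minutes to stimulation or to tissue dissociation. Of 22 tested, 17 were lower, 5 fell (Fosb, Jun, Jund, Klf2 and Klf4) and 1 rose (Nr4a2), with a median log2 difference of -0.35. Jun was at 3371, 3170.3, 1998 and 1797 CPM against 4755, 4769, 3213 and 2758 CPM. Klf2 had the largest fall of these (-1.11 ± 0.23, SE; edgeR adjusted p = 2.09e-04); those of Fosb, Jun and Jund were lost when any 1 OSA library was left out. None of the 6 calls held in every alternative. Of 22 interferon response genes 11 were higher and 11 lower with 0 calls, and the clock, hypoxia, heat shock, unfolded protein and cell cycle lists also gave 0 calls in edgeR among 18, 21, 12, 18 and 7 genes tested. At an unadjusted p under 0.05, the interferon list held 1 gene, the clock list 2, the hypoxia, heat shock and unfolded protein lists 3 each and the cell cycle list 0, and DESeq2 called 0 in each of them. Over all genes tested 2.6% passed, so 0 calls on lists of this size do not show that their genes were unchanged. Ribosomal protein genes were higher in 35 of 36 with a median log2 difference of 0.18, 0 calls in edgeR and in DESeq2 and 1 gene at an unadjusted p under 0.05. The metallothioneins Mt1 and Mt2, zinc-binding proteins of the acute phase, were at 6636, 17782, 24940.4 and 17682 and 9585, 14184, 27410.1 and 17556 CPM against 8857, 9692, 13915 and 12218 and 9186, 9788, 16446 and 12827 CPM and did not pass (adjusted p = 0.11 and 0.126). The zinc importer Slc39a14 rose, at 35.1, 119.5, 114 and 163 CPM against 28.1, 55.2, 60.8 and 68.3 CPM (1.16 ± 0.29), and its call was lost without OSA replicate 1 (adjusted p = 0.128) or OSA replicate 3 (0.63). In the insulin-like growth factor system Igfbp5 and Igfbp6 fell. Igfbp5 lost its call without control replicate 2 (edgeR adjusted p = 0.749), OSA replicate 1 (0.86) or OSA replicate 3 (0.764) and in DESeq2 (0.866), and Igfbp6 without OSA replicate 1 (0.421) and in DESeq2 (0.359). Igfbp5 was at 1299, 220.2, 1590.1 and 355 CPM against 1129, 1061, 1335 and 1118 CPM, lower in OSA replicates 1 and 3 and not in the other libraries.

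The members differed among themselves by their Saa3 count. In OSA replicate 3, the 37 members with 6 or more Saa3 UMIs held Hp at 3127 CPM and the 54 others at 542 CPM, against 96.8 CPM under the limit. Hp was detected in 31 of the 37 and in 32 of the 54. Immune markers moved with this split: the 10 on the list summed to 1573 CPM in the 37, 622 CPM in the 54 and 648 CPM under the limit, with 9 detected and Ptprc at 0 by the rule in each. Lyz2, a lysozyme of macrophages and neutrophils, was at 1008 and 282 CPM, and C1qb, a macrophage complement gene, at 266 and 43.3 CPM. In OSA replicate 1 the list summed to 168 and 106 CPM, against 190 CPM under the limit. The part of immune RNA in the difference of Hp was not tested. Cxcl12 was at 1158 and 503 CPM in the same order, Tnc at 209 and 67.4 CPM, Mmp3 at 315 and 181 CPM and Chl1 at 111 and 44.5 CPM. Complement differed less between the members: C3 was at 7947 and 6285 CPM, Cfb at 229 and 294 CPM and C4b at 451 and 533 CPM. Pi16 was higher in the members with little Saa3, at 504 and 1165 CPM, as was Sfrp4, at 239.7 and 842 CPM, which in OSA replicate 1 went the other way, at 349 and 237 CPM. In OSA replicate 1 the 7 members with 6 or more Saa3 UMIs and the 6 others stood at 1251 and 39.6 CPM for Hp, 5819.7 and 119 CPM for Timp1, 745 and 66 CPM for Mmp3 and 96.2 and 765 CPM for Pi16. Of the 104 Hp UMIs in those 7 cells, 95 lay in 1 cell, and without it their level was 129 CPM; 1 cell likewise held 314 of the library's 493 Timp1 UMIs. Inmt was at 0 and 1913 CPM in OSA replicate 1 and at 109 and 186 CPM in OSA replicate 3, against 1398 and 1096 CPM under the limit. These are values without a test, since the split uses a gene of the rule.

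**Figure D4:**
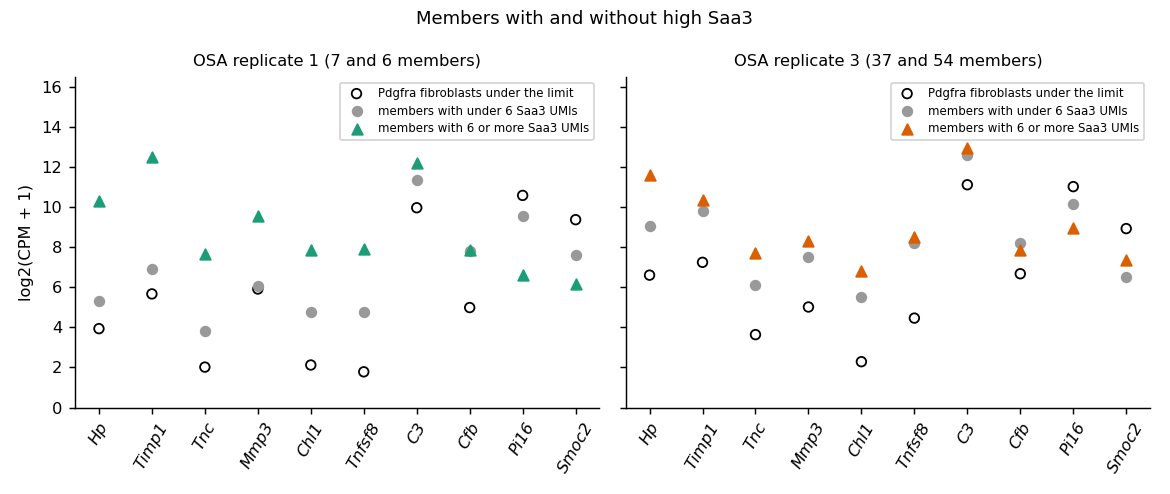
Expression on a log2(CPM + 1) axis of 10 genes in members with 6 or more Saa3 UMIs (triangles), members with fewer (grey) and cells under the limit (open), in OSA replicates 1 and 3. Hp, Tnc and Chl1 are highest in the triangles in both libraries, while Cfb is nearly level between the members and Pi16 is lowest in the triangles; in OSA replicate 1 the Hp triangle rests on 1 cell with 95 of 104 UMIs.

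OSA replicate 2 held a different mixture. Its 17 members had Pi16 at 3165 CPM against 1762 CPM under the limit, Smoc2 at 9.94 CPM against 576 CPM, and Saa3 in only 3 cells. They were nonetheless high in C3, C4b and Cfb, at 4915, 676 and 323 CPM. Cxcl2, Ccl19 and Lcn2 were also highest there among the members, at 596, 224 and 159 CPM. Hp at 69.6 CPM, Timp1 at 323 CPM and Tnc at 9.94 CPM were lowest among the OSA libraries. C3, C4b, Cfb, C2, Cxcl12, Cxcl2 and Ccl19 were thus above the cells under the limit in all 3 OSA libraries, whereas Tnc, Mmp3 and Cxcl5 were so in OSA replicates 1 and 3 and not in OSA replicate 2. Ccl2 was at 184 CPM against 187 CPM there. Because fewer than 20 members came from each of OSA replicates 1 and 2, their values move with single cells.

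Levels changed with the Saa3 and Serpina3n sum below the limit as well as above it. In OSA replicate 3, cells with a sum of 0, 1 to 2, 3 to 5, 6 to 11, 12 to 23 and 24 or more numbered 498, 209, 63, 31, 27 and 33. Hp was at 46.2, 115, 302, 247, 1141 and 3033 CPM over these bins and C3 at 1880.0, 2454, 3416, 5629, 6298 and 8673 CPM. Smoc2 was at 560 CPM at a sum of 0 and at 92.8, 85.6 and 169 CPM in the bins of members, and Inmt at 1164 CPM in the lowest bin and 80.8 CPM in the highest. Depth moved with the bins: median UMIs per cell were 6383.5, 7643, 9254, 13578, 13258 and 14695. A deeper cell passes a fixed limit more easily, and CPM divide by depth. In OSA replicate 2 C3 was at 1211 CPM at a sum of 0 and at 1476 and 2193 CPM at sums of 1 to 2 and 3 to 5. The bins use the rule's genes and are given without a test.

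**Figure D5:**
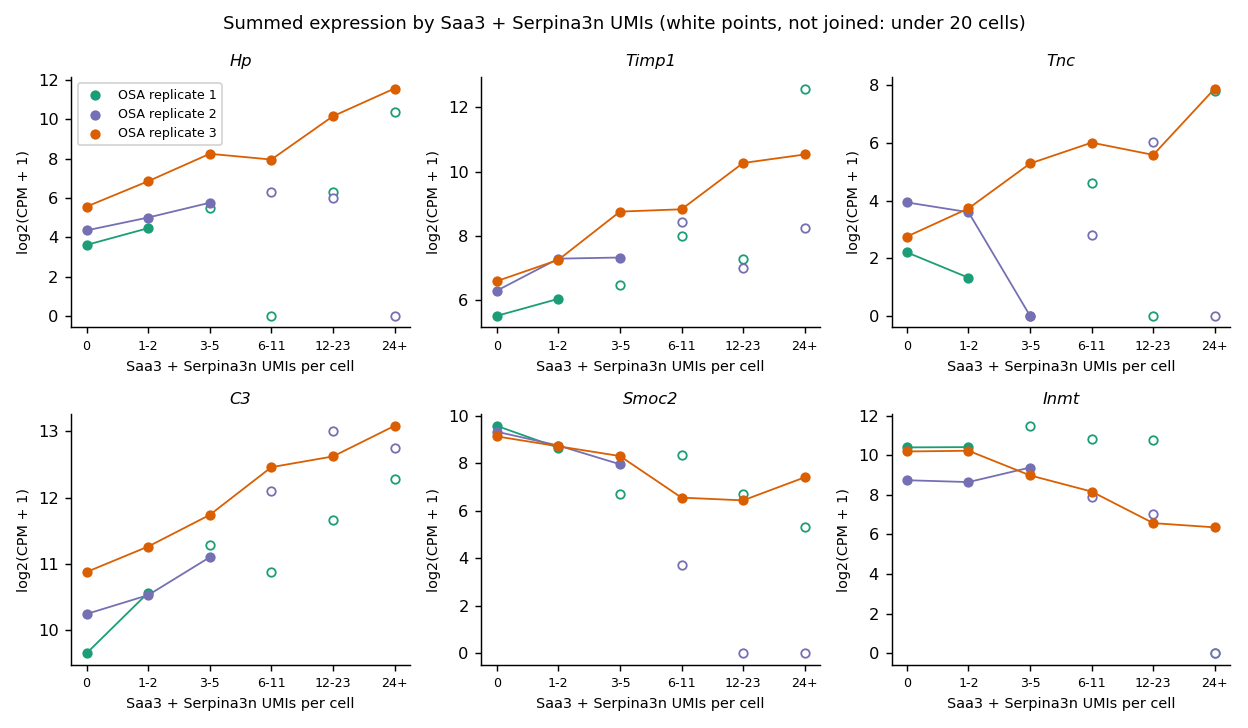
Summed expression on a log2(CPM + 1) axis of 6 genes (y axis) by the Saa3 and Serpina3n UMIs of the cells (x axis) in the 3 OSA libraries; white points, not joined, stand for fewer than 20 cells. In OSA replicate 3 Hp climbs from 46.2 to 3033 CPM and C3 from 1880.0 to 8673 CPM while Inmt drops from 1164 to 80.8 CPM.

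Whether the acute-phase fibroblasts themselves differ between OSA and control could hardly be asked, since the control arm is 2 cells of 1 library. Of 4456 genes tested, 3 (0.0673%) passed edgeR's quasi-likelihood test, 1 higher (0.0224%) and 2 lower (0.0449%) in OSA. Mt1 was at 6636, 17782, 24940.4 and 17682 CPM and rose by 1.99 on the log2 scale (adjusted p = 0.00251), with all 3 OSA libraries above the control cells. Cxcl9, an interferon-induced chemokine, was at 527, 12.6, 9.94 and 19.4 CPM, and Tnfaip6 at 6776, 1484, 1615 and 1225 CPM; both were lower in all 3 OSA libraries. Mt1 lost its call with a limit of 4 (edgeR adjusted p = 0.0887) and with 10 counts in every sum (0.206), Tnfaip6 with a limit of 4 (0.0807) and Cxcl9 with thinned sums (0.218). The count of calls ran from 1 to 96 over the alternatives. In the cells under the limit the control arm is again 1 library, whose spread is unknown and is assumed to be that of the OSA libraries. There 3 of 13578 genes (0.0221%) passed, 2 higher (0.0147%) and 1 lower (0.00736%). Chst11, which sulphates chondroitin, rose from 14.7 CPM to 50.6, 49.6 and 54.8 CPM. Cthrc1, a matrix protein of activated fibroblasts, rose from 1.03 CPM to 7.02, 11.5 and 14.1 CPM. Stmn4, a neuronal stathmin, fell from 121 CPM to 62.5, 37.7 and 36.4 CPM. That count was 164 without OSA replicate 1, 103 without OSA replicate 2 and 5 without OSA replicate 3. Without OSA replicate 3 none of these 3 genes kept its call, and with DESeq2 or a limit of 10 only 1 of the 3 did. The difference of the OSA change between members and cells under the limit passed for 76 of 11790 genes (0.645%), 54 higher (0.458%) and 22 lower (0.187%) in the members, and it rests on the same 2 control cells. Its median over all genes tested was 5.48 on the log2 scale, 0.38 in DESeq2 and 0.00256 with 10 counts in every sum. The whole fit thus lay on the higher side, so 54 higher against 22 lower does not show a stronger OSA change in the members.

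Taking all Pdgfra fibroblasts together avoids the limit, a comparison chosen after the data were seen. Saa3 was at 0.858 CPM in control replicate 2 and 178, 4.24 and 680 CPM in OSA replicates 1, 2 and 3. Serpina3n was at 19.2 against 64.3, 84 and 216 CPM, and Hp at 12 against 44.8, 25.7 and 355 CPM. Every OSA value exceeded the control, and Saa3 spread from 4.24 to 680 CPM among the OSA libraries themselves. None of the 3 passed in edgeR's quasi-likelihood test, with unadjusted p of 0.26 for Saa3, 0.161 for Serpina3n and 0.33 for Hp. Of 13702 genes 1 (0.0073%) passed. In such sums, more cells with the transcripts and more transcripts in each cell cannot be told apart.

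The 4 libraries held 70217449 to 82184913 UMIs and 12587 to 15714 barcodes with at least 300 genes. Pairs among the 6 barcode lists shared 41 to 67 barcodes (0.33 to 0.468% of the shorter list), and no member barcode occurred in more than 1 library. Scrublet called 2.84 to 4.01% of barcodes doublets. All libraries carry the same batch, sex and week in the labels.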

How the data were processed

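Deposited data were raw UMI counts per gene and barcode for 33696 genes in filtered 10x matrices, made by the authors with Cell Ranger 9.0.1 per the file headers; the submitters' processing notes name the builds GRCm39 and mm39. Barcodes were chosen by the stated rule, and the members and gene lists were chosen with earlier results of these data known. Doublets were called with Scrublet (scanpy 1.11.5, expected rate 0.1) and kept in the main values. Counts were summed per library and set of cells and tested with edgeR 4.0.16 in R 4.3.3 (filterByExpr, TMM scaling, robust quasi-likelihood fit, Benjamini-Hochberg adjustment, threshold 0.05). Members against cells under the limit had the library as a block over 8 sums, leaving 3 residual degrees of freedom. OSA against control was fitted over 4 sums, leaving 2. The SE is the log2 difference divided by the square root of F. CPM are not TMM-scaled. DESeq2 1.42.0 was an alternative, with other limits, filters, scalings, matched depth, split UMIs and each library left out. The scripts were tested on simulated data. There the comparison of members with cells under the limit called 7% of 2-fold and 59% of 4-fold changes. The changed genes were drawn from those with more counts, and all simulated libraries shared the same mean profile and the same spread. These percentages therefore do not describe genes of few counts or libraries as uneven as those read here.

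Named genes were the 14 largest rises and 10 largest falls past the threshold, limited to genes averaging 5 or more in log2 CPM and moving alike in all 4 libraries, with Saa3, Serpina3n, Hp and Pdgfra, members of the 26 lists that passed and up to 4 further members of a list as values; Timp1, Inmt, Pi16, Gsn, Cdkn1c, Chl1 and Tnfsf8 were named after their values were seen. A gene among the largest rises is not reported here. Promoter windows come from a RefSeq table on GRCm38.p6, in which 11 of 16 genes looked up were found. Intervals of shares are exact binomial at 95% and, like floors of 3 counts, cover counting error only.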

Additional observations from a re-analysis of the deposited data

Results flagged for a closer look

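The OSA change differed between members and cells under the limit for 76 genes in edgeR's quasi-likelihood test of the difference itself. The control arm of the members is 2 cells, so a gene at 0 there could stand at up to 105 CPM, and a fitted difference against such a 0 is no bound. The largest positive differences were of that kind, and the median difference over all genes tested was itself 5.48 on the log2 scale. Npc2, a lysosomal cholesterol carrier, had a difference of 13.43 on the log2 scale, with 0 CPM in the control members, 673, 363 and 522 CPM in the OSA members, and 291, 287, 226 and 345 CPM in the cells under the limit. Inmt had a difference of 13.22 and the receptor Ror1 one of 13.05. The largest negative differences were Negr1 at -4.00, Trpm3 at -3.81 and Osgin1 at -3.46. Negr1, a neuronal adhesion molecule, was at 421 CPM in the 2 control members and 6.29, 39.8 and 6.47 CPM in the OSA members. Trpm3, a cation channel, was at 527 against 12.6, 79.5 and 10.5 CPM. DESeq2 called 0 genes in this comparison, with 323 at an unadjusted p under 0.05.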

How the results depend on the processing

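No paired analysis was possible because the control and OSA libraries that were read share fewer than 2 replicate numbers. Nothing in the labels says that control and OSA libraries of equal replicate number are a pair, so more shared numbers would not by themselves have given pairs. The count of 305 genes that differed between members and cells under the limit became 119 in DESeq2, 27 with 10 counts required in every sum (414 genes tested), 99 at matched depth (6165 tested) and 193 with split UMIs, and ran from 69 to 425 with each library left out. The 3 genes for OSA against control in members became 9 and 22 with limits of 4 and 10, 10 in DESeq2, 55 and 1 with filters of 1 count and of 10 counts in every sum, 33 with thinned sums and 42 to 96 with each OSA library left out. The 3 genes in cells under the limit became 1 with a limit of 10, 5 without doublets, 84 with a filter of 1 count, 10 with thinned sums, 1 with members added (chosen after seeing the data) and 5 to 164 with each OSA library left out. The 76 genes whose OSA change differed between the sets became 38 with a limit of 4, 0 in DESeq2 (323 at an unadjusted p under 0.05), 49 with RLE scaling, 43 and 2 with filters of 1 and of 10 counts, and 23 to 71 with each OSA library left out. Osgin1 in that comparison turned from -3.46 to 8.78 with a limit of 10 (edgeR adjusted p = 0.856). Fewer genes tested or fewer cells belong to the filters, matching and left-out libraries by construction; otherwise the cause was not tested. Of 922 values of 76 named genes for members against cells under the limit, 704 kept direction and call and 218 kept direction without the call. The OSA excess of the share kept its direction in every setting tried, between 1.70 and 7.56 percentage points. The 28481 UMIs of the control members limit every comparison that needs them.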
